A study of Homo sapiens with 8 samples.

Results

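Transcripts of the ATP-binding cassette (ABC) transporters were measured in cultures of the human ovarian carcinoma line A2780, with and without the drug temsirolimus, and in A2780CP20, a subline of it. The 43 genes described here are those whose symbol is ABC, a subfamily letter from A to G and a number, out of 18417 genes with a probe set that names a single gene. They comprise 12 ABCA, 8 ABCB, 11 ABCC, 3 ABCD, 1 ABCE, 3 ABCF and 5 ABCG genes. ABCC13, a transcribed pseudogene, is counted among the 43. CFTR and the peptide transporter genes TAP1 and TAP2 belong to the superfamily under other symbols and are given beside it.

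ABC proteins bind and hydrolyse ATP at a pair of nucleotide-binding domains, and most couple this to the movement of a substrate across a membrane. In ovarian cancer the family is best known for drug efflux: P-glycoprotein, encoded by ABCB1, removes taxanes and anthracyclines from cells, and the ABCC multidrug resistance proteins export glutathione conjugates and nucleotide analogues. Other members carry cholesterol and phospholipids, fatty acyl groups, haem or peptides, and the ABCE and ABCF proteins have no membrane domain and act on ribosomes.

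RNA was hybridised to Affymetrix Human Gene 1.0 ST arrays, 1 sample per array, with 2 arrays in each of 4 groups. The groups were untreated A2780CP20 cells, untreated A2780 cells, A2780 cells given temsirolimus for 24 h and A2780 cells given it for 48 h. A2780CP20 is known as a cisplatin-resistant derivative of A2780, although the labels do not mention cisplatin, and each line is a single line. Temsirolimus, an ester of rapamycin, inhibits the kinase complex mTORC1. Its stock was in DMSO and its dose is not in the labels. RPMI medium with fetal bovine serum was used throughout, and the labels do not say whether the untreated cells were given DMSO. Nothing in the labels says that the 2 arrays of a group came from separate cultures, and the spread behind the p-values is that between these samples only and may be technical.

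Values are log2 intensities as deposited, and a change is the log2 difference between group means ± its standard error (SE), from limma on all 8 arrays (n = 2 per group). A gene was called when limma's p-value, adjusted by Benjamini-Hochberg over all 18417 genes, was under 0.05. "Not called" means only that this threshold was missed. Array medians lay between 6.66 and 6.72. The lowest lower quartile of any array was 5.03, and 11 of the 43 genes lay below it on every array, 4 on some arrays and 28 on none. No detection call came with the values, so signal over background is not known for the dim genes, and changes that involve such values can be understated. Probe sets differ in brightness for reasons unrelated to transcript number, so no gene's level is set against another's.

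The arrays labelled 24 h stood apart before any gene was considered. Across all genes each correlated with the arrays of other groups at r = 0.950 to 0.952 (12 pairs), whereas arrays of the same group correlated at 0.991 to 0.997 (4 pairs) and arrays of the other 3 groups with each other at 0.979 to 0.996 (12 pairs). No test is attached to these values, since genes are not replicates. Over the 43 ABC genes the root mean square difference between a 24 h array and an array of another group was 0.76 to 0.90, against 0.20 to 0.35 between arrays of the other groups and 0.13 to 0.21 within groups. Whether the labels of these arrays were exchanged with others was not tested, and changes are given under the labels as they stand.

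Markers of cell type also differed on the 24 h arrays. The mean level of 8 fibroblast markers was 9.47 to 9.51 on the A2780CP20 arrays, 9.71 on both untreated A2780 arrays, 7.20 to 7.24 at 24 h, and 9.67 on both 48 h arrays. At 24 h 7 of the 8 were called lower than in untreated A2780 and none higher, led by the matrix genes LUM (-5.40 ± 0.17) and COL1A2 (-5.39 ± 0.11). Of 13 markers of ovarian carcinoma and its Mullerian epithelium, 2 were called higher at 24 h, KRT18 (2.94 ± 0.21, uncertain because the gene has many pseudogenes) and EPCAM (2.17 ± 0.11), and none lower. Their mean level was 6.37 to 6.44 in A2780CP20, 6.31 to 6.38 in untreated A2780, 6.67 to 6.76 at 24 h and 6.17 to 6.19 at 48 h. None of the 13 lay below 5.03 on both arrays of any group. Of all genes tested, 14.9% were called higher at 24 h and 15.3% lower, so 2 of 13 higher lies near the share of all genes. Among 5 leukocyte, 4 endothelial and 5 hepatocyte markers, 1 was called at 24 h, the leukocyte gene PTPRC (0.52 ± 0.10), at a mean level of 4.51 at 24 h and 3.99 in untreated A2780. In RNA from whole cultures, fewer cells of a kind and less RNA per cell cannot be told apart. The part of these differences in the changes of the ABC genes was not tested.

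**Figure D1:**
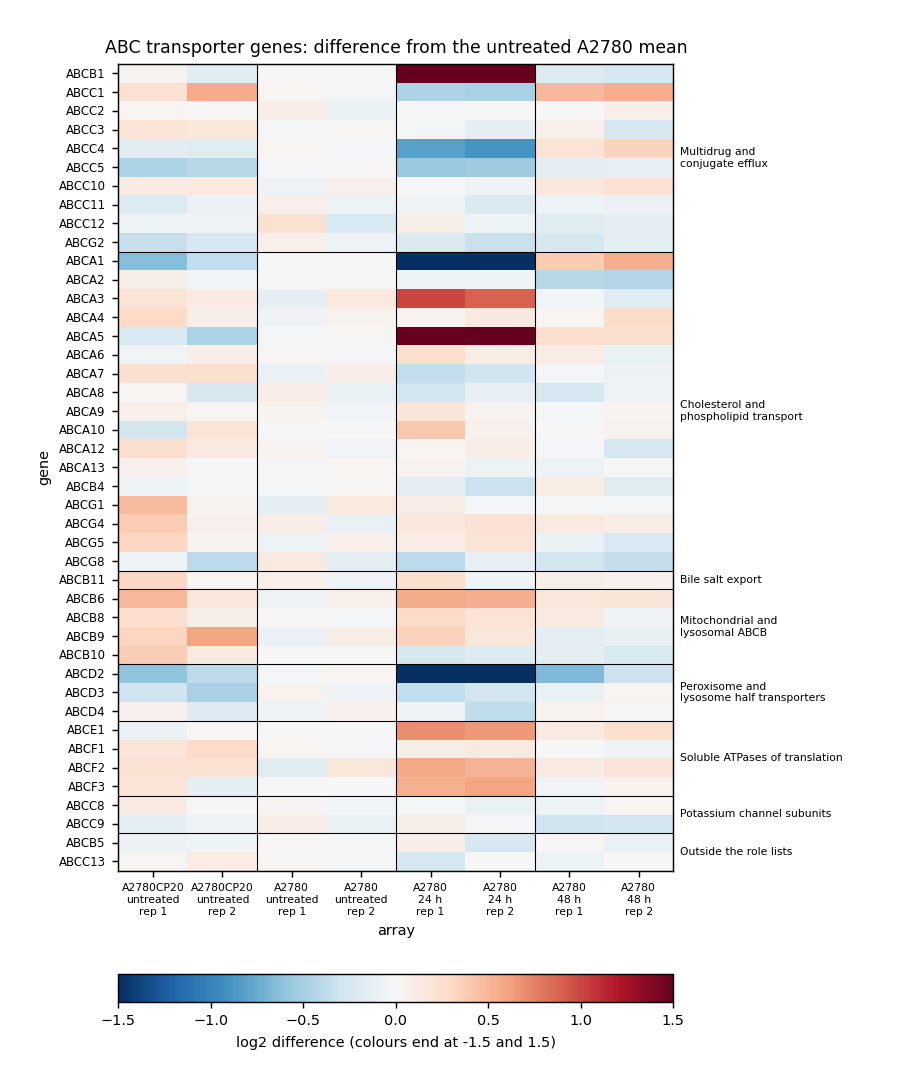
Log2 difference of each of the 43 ABC genes (rows, grouped by role) from the mean of the untreated A2780 arrays, on each of the 8 arrays (columns); colours end at -1.5 and 1.5, so larger differences are not told apart. The colours at the ends of the scale are all on the 24 h arrays, in ABCB1, ABCA1, ABCA5 and ABCD2, and most other rows are pale on every array.

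At 24 h, 13 of the 43 ABC genes were called against untreated A2780. ABCB1, the P-glycoprotein gene, and ABCA5, an endosomal and lysosomal lipid transporter gene, were the largest rises, and ABCD2, a peroxisomal fatty acid transporter gene, and ABCA1, the cholesterol exporter gene, the largest falls. Counted by direction, 7 genes rose (16.3% of 43, against 14.9% of all genes tested) and 6 fell (14.0%, against 15.3%). These shares lie near those of all genes. The median change was -0.02 over the 43 genes and 0.01 over all genes, and 4 ABC genes changed at least 2-fold (9.30%, against 6.43% of all genes).

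The sequences just upstream of these 4 genes are shown because they carried the largest changes. Each is the 250 bases before an annotated start in RefSeq (GRCh38.p14), written 5′ to 3′ along the gene, and all 4 genes lie on the minus strand. Capitals mark 4 motifs searched on both strands by exact letters. They are the CCAAT box (CCAAT, or ATTGG on the other strand), the GC box (GGGCGG, and on the other strand CCGCCC), the E-box (CACGTG, which is its own complement) and the TATA box (TATAAA, and on the other strand TTTATA). The windows are ABCB1 at chr7:87600885-87601134, ABCA1 at chr9:104928156-104928405, ABCD2 at chr12:39619804-39620053 and ABCA5 at chr17:69327134-69327383.
ABCB1: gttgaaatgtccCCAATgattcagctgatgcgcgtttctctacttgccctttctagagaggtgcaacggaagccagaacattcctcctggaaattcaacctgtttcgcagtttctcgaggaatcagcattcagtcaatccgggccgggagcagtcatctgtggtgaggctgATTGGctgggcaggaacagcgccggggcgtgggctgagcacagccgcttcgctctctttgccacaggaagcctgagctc
ABCA1: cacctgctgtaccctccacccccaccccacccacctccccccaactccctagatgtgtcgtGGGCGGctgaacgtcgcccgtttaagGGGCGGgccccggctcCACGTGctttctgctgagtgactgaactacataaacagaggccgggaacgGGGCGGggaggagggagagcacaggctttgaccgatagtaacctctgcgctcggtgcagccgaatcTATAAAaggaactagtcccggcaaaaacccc
ABCD2: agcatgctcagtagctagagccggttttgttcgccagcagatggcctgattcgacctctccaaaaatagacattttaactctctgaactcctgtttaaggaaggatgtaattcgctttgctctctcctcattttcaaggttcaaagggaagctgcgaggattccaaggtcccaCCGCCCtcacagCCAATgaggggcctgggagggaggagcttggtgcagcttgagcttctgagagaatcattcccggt
ABCA5: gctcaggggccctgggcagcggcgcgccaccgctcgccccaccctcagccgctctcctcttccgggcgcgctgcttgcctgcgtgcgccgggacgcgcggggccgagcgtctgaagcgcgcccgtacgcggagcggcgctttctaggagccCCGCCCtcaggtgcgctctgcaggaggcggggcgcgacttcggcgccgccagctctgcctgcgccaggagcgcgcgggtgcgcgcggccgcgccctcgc

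The ABCB1 window held 2 CCAAT motifs, 1 on each strand, and none of the other 3. That of ABCA1 held 3 GC boxes, 1 E-box and 1 TATA box. The ABCD2 window held 1 CCAAT motif and 1 GC box, and that of ABCA5, whose GC content was 79.2%, held 1 GC box. RefSeq lists another start each for ABCB1 (window chr7:87713296-87713545) and for ABCD2 (chr12:39605508-39605757), and neither window held any of the 4 motifs. Which start was used cannot be read from a gene-level probe set. Over 51 windows of 34 ABC genes, 21.6% held CCAAT, 49.0% a GC box, 17.6% an E-box and 11.8% a TATA box, against 32.0%, 42.6%, 6.34% and 10.7% of all 35116 windows in the table. These are matches of letters only, and ABC genes with several starts enter several times.

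Among the genes of multidrug and conjugate efflux, 10 were measured, and at 24 h 1 rose and 3 fell with a list median of -0.11, where 14.9% of all genes rose and 15.3% fell with a median of 0.01. ABCB1 read 4.91 and 4.70 in A2780CP20, 4.88 and 4.86 in untreated A2780, 8.31 and 8.05 at 24 h, and 4.67 and 4.63 at 48 h. The 2 arrays labelled 24 h were thus high and the 6 others lay together below the quartile of 5.03. The change at 24 h was 3.31 ± 0.12 against untreated A2780 (9.92-fold, limma adjusted p = 1.94e-07). Because the untreated values are dim, the fold may be understated. ABCB1 was not called in A2780CP20 (-0.07 ± 0.12) or at 48 h (-0.22 ± 0.12).

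ABCC4, which encodes MRP4, an exporter of cyclic nucleotides and nucleotide analogues, went the other way. It read 9.41 and 9.40 in A2780CP20, 9.61 and 9.56 in untreated A2780, 8.77 and 8.69 at 24 h, and 9.79 and 9.92 at 48 h. The 24 h arrays were the lowest, with no overlap with any other group, and the change from untreated A2780 was -0.86 ± 0.09 (1.81-fold lower, limma adjusted p = 0.000168). ABCC4 lies on chromosome 13, where the median change of 259 genes at 24 h was -0.17, against 0 over 15765 genes. Both sets hold only genes with a mean above 5.03. In A2780CP20 the 2 medians were -0.115 and 0.02. No other chromosome was computed, and a part of the chromosome in the change of ABCC4 was not tested.

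ABCC1 encodes MRP1, which exports glutathione conjugates and many anticancer drugs. It read 9.27 and 9.60 in A2780CP20, 9.07 and 9.01 in untreated A2780, 8.57 and 8.55 at 24 h, and 9.53 and 9.58 at 48 h. Its 4 groups fell at 3 heights, lowest at 24 h, with the ranges of A2780CP20 and 48 h overlapping above untreated A2780. The change was 0.40 ± 0.12 in A2780CP20 (1.31-fold, limma adjusted p = 0.0487) and -0.48 ± 0.12 at 24 h (1.39-fold lower, limma adjusted p = 0.0140). The call in A2780CP20 was lost in 11 of 16 alternatives, the replicate block and median centring among them, with an adjusted p of up to 0.203. The call at 24 h was lost without any 1 of the untreated A2780 or 24 h arrays, with an adjusted p of up to 0.0846. At 48 h ABCC1 had the largest positive difference among the ABC genes, 0.52 ± 0.12, and was not called (limma adjusted p = 0.175).

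ABCC5, which encodes MRP5, another exporter of cyclic nucleotides, was lower in both called comparisons with untreated A2780. It read 8.47 and 8.53 in A2780CP20, 8.93 and 8.96 in untreated A2780, 8.39 and 8.41 at 24 h, and 8.81 and 8.82 at 48 h. The untreated A2780 arrays were the highest and no 2 groups overlapped. The change was -0.45 ± 0.08 in A2780CP20 (1.36-fold lower, limma adjusted p = 0.00988) and -0.55 ± 0.08 at 24 h (1.46-fold lower, limma adjusted p = 0.00141).

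ABCC2, ABCC3 and ABCG2, which encode further exporters linked to drug resistance, were not called in any of the 5 comparisons. ABCC2, whose protein MRP2 exports conjugates into bile, read 5.69 and 5.65 in A2780CP20, 5.75 and 5.56 in untreated A2780, 5.63 and 5.65 at 24 h, and 5.66 and 5.73 at 48 h. All its groups overlapped with untreated A2780. ABCC3, an exporter of glucuronides, read 6.21 and 6.17 in A2780CP20, 6.0 and 6.03 in untreated A2780, 5.98 and 5.88 at 24 h, and 6.09 and 5.78 at 48 h. ABCG2, the breast cancer resistance protein gene, read 5.25 and 5.35 in A2780CP20, 5.67 and 5.51 in untreated A2780, 5.37 and 5.26 at 24 h, and 5.35 and 5.44 at 48 h. For ABCC3 the A2780CP20 arrays were above all others and the remaining groups overlapped with each other or with untreated A2780. The ABCG2 arrays of untreated A2780 were above all others, and its change in A2780CP20 was -0.29 ± 0.10 (limma adjusted p = 0.0808). ABCC10, ABCC11 and ABCC12, the other 3 measured genes of this list, were not called either.

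**Figure D2:**
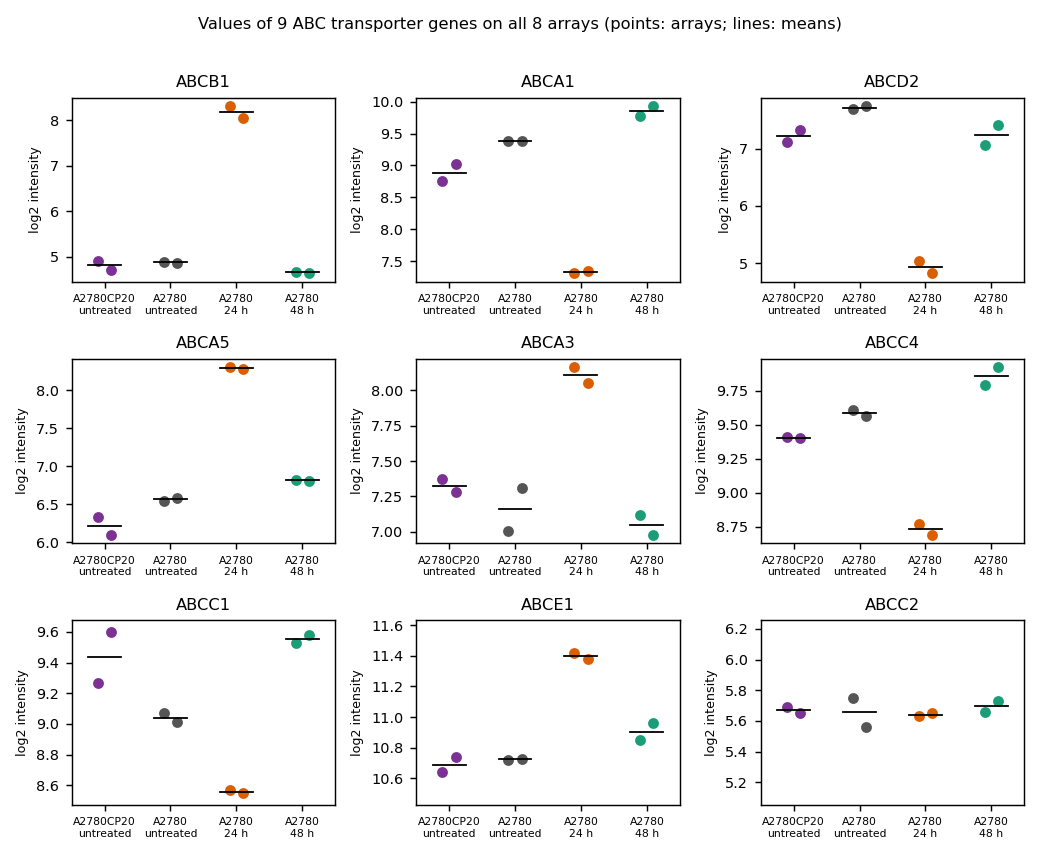
Log2 intensity of 9 ABC genes on all 8 arrays; points are arrays, coloured by group, lines are group means of 2 arrays, and each panel has its own vertical scale. At 24 h ABCB1, ABCA5, ABCA3 and ABCE1 stand above the other groups and ABCA1, ABCD2, ABCC4 and ABCC1 below them, while the groups of ABCC2 overlap.

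Of the 17 measured genes of cholesterol and phospholipid transport, 2 rose and 2 fell at 24 h (14.9% of all genes rose and 15.3% fell), with a list median of 0.07. ABCA1 passes cholesterol and phospholipid to apolipoprotein A-I, the first step in forming high-density lipoprotein. It read 8.75 and 9.02 in A2780CP20, 9.39 and 9.39 in untreated A2780, 7.31 and 7.35 at 24 h, and 9.77 and 9.93 at 48 h. All 4 groups were separate, with 24 h lowest and 48 h highest. Against untreated A2780 the change was -0.51 ± 0.11 in A2780CP20 (1.42-fold lower, limma adjusted p = 0.0180) and -2.06 ± 0.11 at 24 h (4.17-fold lower, limma adjusted p = 2.58e-06). At 48 h it was 0.46 ± 0.11 and was not called (limma adjusted p = 0.206).

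ABCA5 read 6.34 and 6.10 in A2780CP20, 6.55 and 6.59 in untreated A2780, 8.30 and 8.28 at 24 h, and 6.82 and 6.81 at 48 h. The 24 h arrays were high, the A2780CP20 arrays the lowest, and no groups overlapped. The change was 1.72 ± 0.10 at 24 h (3.29-fold, limma adjusted p = 4.24e-06) and -0.35 ± 0.10 in A2780CP20 (1.27-fold lower, limma adjusted p = 0.0461). ABCA3, which loads surfactant phospholipid into the lamellar bodies of lung cells, read 7.37 and 7.28 in A2780CP20, 7.01 and 7.31 in untreated A2780, 8.16 and 8.05 at 24 h, and 7.12 and 6.98 at 48 h. Its 24 h arrays were above all others, untreated A2780 overlapped with both A2780CP20 and 48 h, and the change at 24 h was 0.95 ± 0.12 (1.93-fold, limma adjusted p = 0.000464).

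ABCA7, a phospholipid transporter gene close in sequence to ABCA1, read 8.37 on both A2780CP20 arrays, 8.04 and 8.23 in untreated A2780, 7.76 and 7.84 at 24 h, and 8.10 and 8.05 at 48 h. The 24 h arrays were the lowest and the A2780CP20 arrays the highest. ABCA7 was called lower at 24 h (-0.34 ± 0.10, limma adjusted p = 0.0308), a call lost in 7 of 15 alternatives, with an adjusted p of up to 0.188. Among these were the fits without untreated A2780 replicate 2 and without any 1 of the 24 h or 48 h arrays. ABCG1, which hands cholesterol to high-density lipoprotein, read 6.17 and 5.75 in A2780CP20, 5.55 and 5.84 in untreated A2780, 5.79 and 5.66 at 24 h, and 5.68 on both 48 h arrays. Its groups overlapped, and it was called in no comparison. ABCA4, ABCA6, ABCA8, ABCA9, ABCA10, ABCA12, ABCA13, ABCB4, ABCG4, ABCG5 and ABCG8 were also called in none. ABCA2, an endolysosomal lipid transporter gene, was not called against untreated A2780.

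Of 3 measured transporters of peroxisomes and lysosomes, 1 fell at 24 h (14.9% of all genes rose and 15.3% fell), with a list median of -0.32. ABCD2 imports very-long-chain fatty acyl groups into peroxisomes. It read 7.12 and 7.33 in A2780CP20, 7.69 and 7.75 in untreated A2780, 5.03 and 4.82 at 24 h, and 7.06 and 7.41 at 48 h. The 24 h arrays were far below the rest and at or under the quartile of 5.03, the A2780CP20 and 48 h arrays overlapped, and untreated A2780 was highest. The change was -0.50 ± 0.14 in A2780CP20 (1.41-fold lower, limma adjusted p = 0.0415) and -2.80 ± 0.14 at 24 h (6.94-fold lower, limma adjusted p = 1.44e-06).

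ABCD3 encodes PMP70, a peroxisomal carrier of branched-chain and dicarboxylic acyl groups. It read 10.50 and 10.31 in A2780CP20, 10.85 and 10.74 in untreated A2780, 10.43 and 10.52 at 24 h, and 10.70 and 10.83 at 48 h. The A2780CP20 and 24 h arrays overlapped below the other groups. Its change was called in A2780CP20 (-0.39 ± 0.11, limma adjusted p = 0.0361) and not at 24 h (-0.32 ± 0.11). ABCD4, a lysosomal vitamin B12 transporter gene, was called in no comparison.

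Of the 4 soluble ATPases of translation, 3 rose at 24 h and none fell, with a list median of 0.55. Of all genes tested 14.9% rose and 15.3% fell, with a median of 0.01, and a count over 4 genes is small. ABCE1, which splits ribosomes for recycling after termination, read 10.64 and 10.74 in A2780CP20, 10.72 and 10.73 in untreated A2780, 11.42 and 11.38 at 24 h, and 10.85 and 10.96 at 48 h. Its 24 h arrays were above all others, and the change was 0.68 ± 0.09 (1.60-fold, limma adjusted p = 0.000629). ABCF3, whose yeast relative Gcn20 works with Gcn1 in the response to amino acid starvation, read 9.71 and 9.37 in A2780CP20, 9.51 and 9.52 in untreated A2780, 10.05 and 10.11 at 24 h, and 9.47 and 9.57 at 48 h. Here too the 24 h arrays were above all others, and the change was 0.57 ± 0.12 (limma adjusted p = 0.00742). ABCF2, a relative of ABCF3, read 10.22 and 10.23 in A2780CP20, 9.84 and 10.17 in untreated A2780, 10.57 and 10.51 at 24 h, and 10.14 and 10.20 at 48 h. Its untreated A2780 arrays were far apart and the 24 h arrays the highest, with a change of 0.54 ± 0.12 (limma adjusted p = 0.00845). ABCF1, a factor of translation initiation, was at 0.11 ± 0.09 and was not called. The call of ABCF2 was lost without untreated A2780 replicate 1 or 24 h replicate 1 (adjusted p of up to 0.0590) and that of ABCF3 without 24 h replicate 2 (adjusted p = 0.0518). RefSeq lists pseudogenes of ABCE1, ABCF2, ABCA3 and ABCB10, so signal from near-identical copies cannot be told apart for those 4 genes.

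Of the 4 measured mitochondrial and lysosomal ABCB genes, 1 rose at 24 h and none fell (14.9% of all genes rose and 15.3% fell), with a list median of 0.25. ABCB6, a porphyrin transporter gene, read 9.19 and 8.87 in A2780CP20, 8.62 and 8.77 in untreated A2780, 9.25 and 9.24 at 24 h, and 8.87 and 8.88 at 48 h. The untreated A2780 arrays were the lowest and the 24 h arrays the highest, and the change at 24 h was 0.55 ± 0.12 (1.46-fold, limma adjusted p = 0.00811). Without untreated A2780 replicate 1 it was not called (adjusted p = 0.0666). ABCB9, which encodes a lysosomal peptide transporter related to TAP, was not called at 24 h (0.26 ± 0.12). ABCB8 and ABCB10, of the mitochondrial inner membrane, were at 0.25 ± 0.10 and -0.22 ± 0.10 and were not called. The potassium channel subunit genes ABCC8 and ABCC9, the bile salt exporter gene ABCB11, ABCB5 and ABCC13 were not called against untreated A2780 at 24 h.

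**Figure D3:**
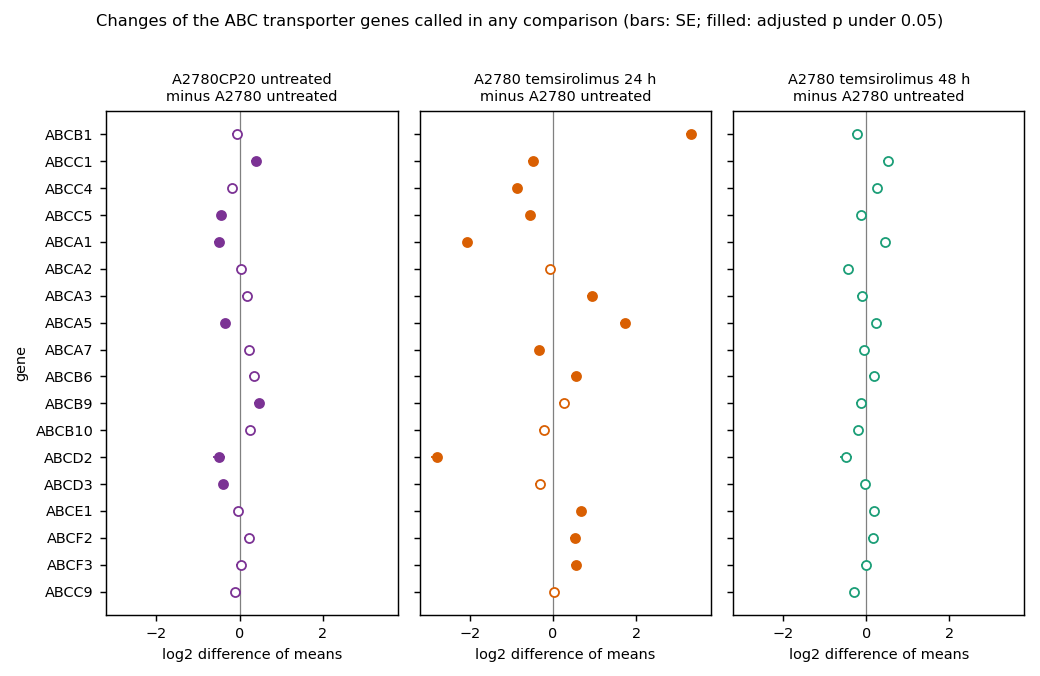
Log2 change against untreated A2780 of the 18 ABC genes called in at least 1 of the 5 comparisons, for A2780CP20 (left), temsirolimus for 24 h (middle) and 48 h (right); bars are limma's SE (n = 2 per group), mostly hidden by the points, and filled points have an adjusted p under 0.05. The middle panel spans -2.80 to 3.31, and the other panels stay within -0.51 to 0.52. The 3 panels share the untreated A2780 arrays.

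The comparison of A2780CP20 with A2780, both untreated, asks how the subline differs from its parent. Differences were small: ABCB9 and ABCC1 were higher, and ABCA1, ABCD2, ABCC5, ABCD3 and ABCA5 were lower, none by 2-fold. The 2 higher genes were 4.65% of the 43, against 6.37% of all genes tested, and the 5 lower genes 11.6%, against 12.0%. The median change was 0.03 over the ABC genes and 0.03 over all genes. ABCB9 read 7.38 and 7.65 in A2780CP20 and 6.97 and 7.14 in untreated A2780. Both A2780CP20 arrays were higher, and the change was 0.46 ± 0.12 (1.38-fold, limma adjusted p = 0.0321). The efflux genes known for platinum or multidrug resistance did not move together: ABCC1 was higher, ABCC5 lower, and ABCB1, ABCC2, ABCC3, ABCC4 and ABCG2 were not called.

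These 7 calls rest on the spread that all groups share in the fit. With only the 2 groups compared, none of the 43 genes was called. Over all genes that fit called 232 higher and 790 lower, against 1174 and 2214 with all 8 arrays. The 7 calls were also lost without either untreated A2780 array. Counts over all genes moved too when arrays were left out. Without A2780CP20 replicate 2, 4 genes were called higher and 3 lower. Without either 24 h array 1 was called higher and 2 lower, and without either 48 h array none higher and 3 lower. Of 16 alternatives, the call of ABCC1 was lost in 11, those of ABCA5 and ABCD3 in 10, of ABCD2 in 8, of ABCB9 in 6, and of ABCA1 and ABCC5 in 3. The changes of the 7 genes kept their sign in all 16. Only quantile normalization, median centring and leaving out an array of the 2 groups compared can alter a change. The other settings leave the difference of group means as it is and could not reverse a sign. Nor are the 16 all separate fits: leaving out 24 h replicate 1, replicate 2 or both gave the same result here. Leaving out either 48 h array likewise gave 1 and the same result. The 3 comparisons with untreated A2780 use the same 2 control arrays, so their errors are shared.

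After 48 h of temsirolimus, no ABC gene was called higher (0.163% of all genes were) and none lower (0.0163% of all genes). Changes lay between -0.49 (ABCD2) and 0.52 (ABCC1). In 7 genes the unadjusted limma p was under 0.05, 16.3% of the 43 against 11.1% of all genes: ABCC1, ABCA1, ABCC4 and ABCA5 on the higher side, and ABCD2, ABCA2 and ABCC9 on the lower. The smallest adjusted p was 0.148, for ABCA2, which read 7.30 and 7.28 at 48 h and 7.73 and 7.71 in untreated A2780. The ABCA2 arrays did not overlap, and the difference was -0.43 ± 0.09.

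Between 48 h and 24 h, 15 ABC genes were called, 5 higher at 48 h (11.6% of 43, against 15.2% of all genes) and 10 lower (23.3%, against 15.7%). ABCA1 (2.52 ± 0.11), ABCD2 (2.31 ± 0.14), ABCC4 (1.13 ± 0.09), ABCC1 (1.00 ± 0.12) and ABCC5 (0.42 ± 0.08) were higher at 48 h. ABCB1 (-3.53 ± 0.12), ABCA5 (-1.48 ± 0.10) and ABCA3 (-1.06 ± 0.12) were lower by at least 2-fold. ABCF3 (-0.56 ± 0.12), ABCE1 (-0.50 ± 0.09), ABCB9 (-0.39 ± 0.12), ABCB6 (-0.37 ± 0.12), ABCF2 (-0.37 ± 0.12), ABCA2 (-0.36 ± 0.09) and ABCC9 (-0.33 ± 0.10) were lower by less. ABCC9, a regulatory subunit of potassium channels, read below 5.03 on every array. With any 1 of the 4 arrays of these groups left out, fewer ABC genes were called lower than the 10 with all arrays. Fewer of all genes were called lower in those fits too.

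Set against A2780CP20, the 24 h arrays had 5 ABC genes higher (11.6%, against 17.8% of all genes) and 6 lower (14.0%, against 15.9%). ABCB1 (3.38 ± 0.12), ABCA5 (2.07 ± 0.10), ABCA3 (0.78 ± 0.12), ABCE1 (0.71 ± 0.09) and ABCF3 (0.54 ± 0.12) were higher. ABCD2 (-2.30 ± 0.14), ABCA1 (-1.56 ± 0.11), ABCC1 (-0.88 ± 0.12), ABCC4 (-0.68 ± 0.09), ABCA7 (-0.57 ± 0.10) and ABCB10 (-0.47 ± 0.10) were lower. ABCB10, which supports haem synthesis in mitochondria, read 8.93 and 8.97 at 24 h and 9.54 and 9.30 in A2780CP20. The calls of ABCB10 and ABCF3 were lost without 24 h replicate 1 (adjusted p = 0.0569) and without 24 h replicate 2 (adjusted p = 0.0578). The 3 comparisons that hold the 24 h arrays share them.

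For the 25 ABC genes called in none of the 5 comparisons, changes at 24 h lay between -0.28 and 0.25. They lay between -0.32 and 0.19 at 48 h, and between -0.29 and 0.27 in A2780CP20. The genes were picked for missing the threshold, so small changes follow from that choice. Of these 25, 10 read below 5.03 on every array. ABCB8 had 3 probe sets, whose changes in A2780CP20 were 0.17, 0.39 and 0.22, and the 3 probe sets of ABCF1 held identical values.

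Of the 3 superfamily genes under other symbols, 2 rose at 24 h (14.9% of all genes rose and 15.3% fell), and a count over 3 genes is small. TAP1 and TAP2 form the transporter that feeds peptides to class I antigen presentation. TAP1 read 9.17 and 9.31 at 24 h and 7.35 and 7.52 in untreated A2780, without overlap. It rose by 1.81 ± 0.10 (limma adjusted p = 3.3e-06) and TAP2 by 0.76 ± 0.12 (limma adjusted p = 0.00175). CFTR, the chloride channel gene, was at 0.19 ± 0.12 and was not called. None of the 3 was called in A2780CP20 or at 48 h.

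Proteins that work with ABC transporters were taken as a further list, and 18 of 20 were measured. At 24 h 5 rose and 3 fell, with a median of 0.03, where 14.9% of all genes rose and 15.3% fell. PSMB9, an immunoproteasome subunit that makes peptides for TAP, rose by 2.11 ± 0.10. GCN1, the partner of ABCF3 known from yeast, rose by 0.68 ± 0.08, and the peroxisome assembly genes PEX3 and PEX19 and the haem synthesis gene FECH by 0.47 ± 0.09, 0.31 ± 0.09 and 0.47 ± 0.12. NPC2, a lysosomal cholesterol carrier, fell by 0.73, APOE, an acceptor of exported lipid, by 0.48 and PEX5, the peroxisomal import receptor, by 0.45 on the log2 scale. In A2780CP20 NHERF1, a scaffold of membrane transporters, was higher (0.55 ± 0.09) and NPC2 lower (-0.57 ± 0.09).

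Of 16 transcription factors known to act on ABC genes, 13 were measured, and 2 rose and 3 fell at 24 h (14.9% of all genes rose and 15.3% fell), with a median of 0.06. HIF1A, the hypoxia factor, rose by 0.88 ± 0.17 and PPARG, a lipid-sensing receptor, by 0.55 ± 0.16. SREBF2, the sterol regulator, was at -0.81 ± 0.09, and the retinoid X receptor genes RXRB and RXRA at -0.42 ± 0.10 and -0.40 ± 0.11. NR1H3, which encodes the oxysterol receptor LXR alpha that activates ABCA1, was at -0.01 ± 0.10, and NFE2L2, a regulator of ABCC genes, at 0.06 ± 0.20; neither was called. In A2780CP20 NR1I3 was higher (0.71 ± 0.10) and SREBF2 lower (-0.37 ± 0.09). NR1I3 read 4.77 and 4.81 in untreated A2780, below 5.03, so its signal over background is not known there.

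Of 11 carriers of platinum and drugs outside the family, 9 were measured, and 2 were higher and 3 lower at 24 h (14.9% of all genes rose and 15.3% fell). The copper exporters ATP7B (-1.21 ± 0.14) and ATP7A (-0.61 ± 0.18) and the organic cation exporter SLC47A1 (-0.92 ± 0.09) fell. SLCO4A1, an organic anion carrier (0.75 ± 0.10), and SLC31A2, a copper transporter gene (0.64 ± 0.08), rose. In A2780CP20 SLCO4A1 was higher (0.85 ± 0.10) and SLC47A1 lower (-0.49 ± 0.09). No gene of the partner, regulator or carrier lists was called at 48 h against untreated A2780.

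Genes beside the 4 ABC genes with the largest changes were read in the RefSeq order, 5 on each side. ABCB1 lies on chromosome 7 next to ABCB4, the phosphatidylcholine exporter gene of bile, which was at -0.23 ± 0.12 at 24 h and was not called. ABCB4 read below 5.03 on every array, so signal over background is not known for it. Of 10 measured neighbours of ABCB1, 3 were higher and 4 lower at 24 h, all by less than 1 on the log2 scale, where 14.9% of all genes were higher and 15.3% lower. ABCA5 lies on chromosome 17 at the end of a cluster with ABCA10, ABCA6, ABCA9 and ABCA8. None of these was called, and each read below 5.03 on every array, so changes in them can be understated. On the other side of ABCA5 the potassium channel genes KCNJ16 (3.83 ± 0.09) and KCNJ2 (3.48 ± 0.13) rose on the 24 h arrays. MAP2K6 (0.41 ± 0.09), between them and ABCA5, rose less. Further out on that side SOX9 (-0.16 ± 0.15) was not called and SLC39A11 (-0.53 ± 0.10) was lower. Of 10 measured neighbours of ABCA5, 3 were thus higher and 1 lower (14.9% and 15.3% of all genes were).

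The neighbours of the 2 genes that fell most did not fall as far. Of 9 measured beside ABCA1 on chromosome 9, 1 was higher and 2 were lower (14.9% and 15.3% of all genes were), with SLC44A1, a choline carrier gene, at -0.51 ± 0.09. Of 8 measured beside ABCD2 on chromosome 12, 3 were higher, among them LRRK2 (1.23 ± 0.09) and KIF21A (1.02 ± 0.14), and SLC2A13 (-0.42 ± 0.09) was lower.

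**Figure D4:**
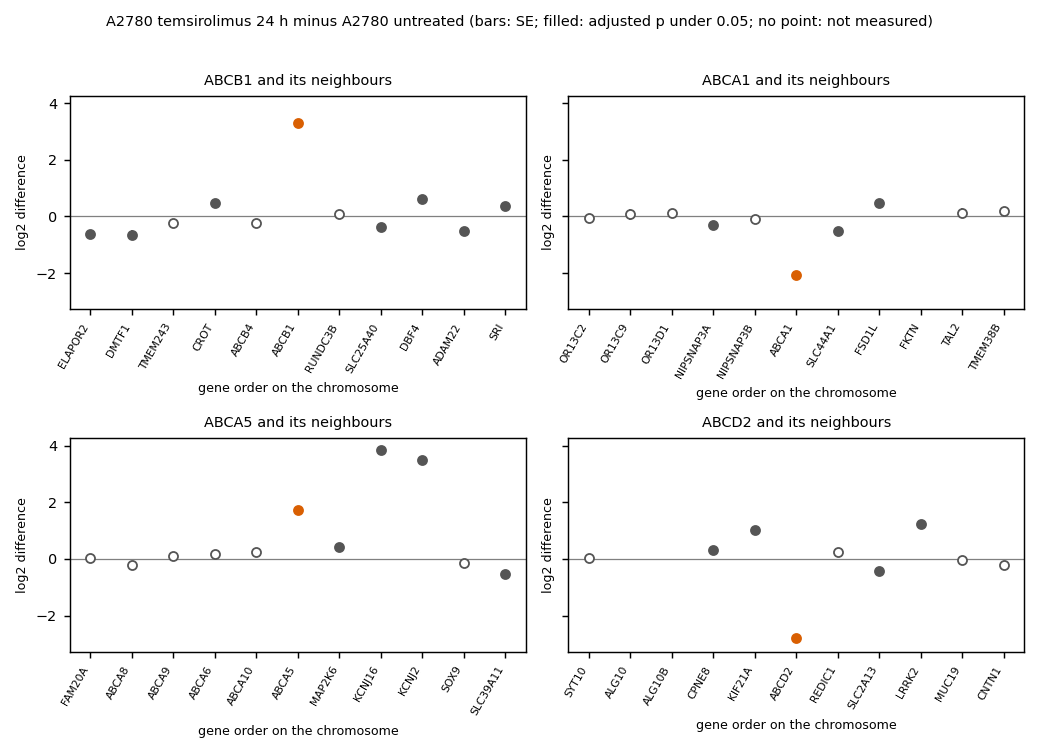
Log2 change at 24 h against untreated A2780 of ABCB1, ABCA1, ABCA5 and ABCD2 (orange) and of the 5 protein-coding genes on each side in chromosome order (grey); bars are SE, mostly hidden by the points, filled points have an adjusted p under 0.05, and genes without a point were not measured. No measured neighbour of ABCB1, ABCA1 or ABCD2 had a change as large as theirs, whereas KCNJ16 (3.83) and KCNJ2 (3.48) had larger changes than ABCA5 (1.72).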

How the data were processed

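Total RNA of 8 samples was measured on 1-colour Affymetrix Human Gene 1.0 ST arrays. The authors deposited 1 table of log2 intensities with 33297 probe sets; the log2 scale was read from the values, which lay between 1.8 and 14.99 and carried 2 decimals. The submitters' processing notes name Partek. For background correction and normalization the method is not stated there. Nothing was renormalized.

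Probe sets were named from the platform annotation: 19460 had 1 gene symbol, 1754 several and 12083 none. Only those with 1 symbol were used, with the probe set of highest mean for the 769 genes that had several, which left 18417 genes. By gene number 18389 matched RefSeq (GRCh38.p14), the source of gene order and promoter sequences. Groups came from sample titles.

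In limma 3.58.1 (R 4.3.3), all 8 arrays were fitted with 1 coefficient per group and moderated variances (4 residual and 4.48 prior degrees of freedom). Tests of the 5 comparisons were two-sided, with Benjamini-Hochberg adjustment over all genes. The number of arrays limits the precision. The ABC genes and gene lists were chosen with earlier results of these data known. Values on all arrays are given for called ABC genes with a log2 change of at least 1 and for 9 efflux and sterol genes, and for some others chosen after their values were seen. Alternatives were quantile normalization, median centring, dropping the 25% of genes with the lowest means, averaging a gene's probe sets, an intensity trend in the prior, a replicate block, leaving out arrays, and fits of only the groups compared.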

Additional observations from a re-analysis of the deposited data

Results flagged for a closer look

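For 15 ABC genes the change after 48 h of temsirolimus differed from the change after 24 h, both taken against untreated A2780, by limma's test of the difference (adjusted p under 0.05, which 15.2% of all genes passed upward and 15.7% downward). The difference, 48 h minus 24 h on the log2 scale, was largest for the P-glycoprotein gene ABCB1 at -3.53. The lipid transporter genes ABCA5 (-1.475), ABCA3 (-1.055) and ABCA2 (-0.355) were also lower at 48 h, as were ABCF3 (-0.56), ABCE1 (-0.495) and ABCF2 (-0.37), which act on ribosomes, ABCB9 (-0.385), ABCB6 (-0.37) and ABCC9 (-0.33). Higher at 48 h were ABCA1 (2.52), ABCD2 (2.31), and the efflux genes ABCC4 (1.125), ABCC1 (0.995) and ABCC5 (0.415). Some of the smaller differences depended on the processing. The calls of ABCB9 and ABCC9 were lost with quantile normalization, and that of ABCB6 with the replicate block.

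The difference cancels the shared untreated arrays, so it is the comparison of the 48 h with the 24 h arrays, and the 24 h arrays stood apart from all others over the whole genome. The cause of that distance was not tested.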

How the results depend on the processing

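Over the alternatives, the changes of called ABC genes kept their sign in all 693 gene and setting pairs and their call in 595, losing it in 98. A sign could move only with quantile normalization, median centring or an array of a compared group left out. The other settings leave the difference of group means as it is. Some settings also repeat a fit, since leaving out either array of a group not compared gives the same result. At 24 h ABCB1, ABCA1, ABCA3, ABCA5, ABCC4, ABCC5, ABCD2 and ABCE1 kept their call in every alternative that tested them; ABCB1 was not tested when the dimmest 25% of genes were left out, and its change otherwise lay between 3.18 and 3.44. Counts at 24 h were 5 to 7 higher and 4 to 9 lower, those of 24 h against A2780CP20 4 to 6 and 5 to 7, and at 48 h 0 and 0. For A2780CP20 the count higher was 1 with median centring, 1 with the replicate block, 1 without both arrays labelled 24 h and 0 with only the groups compared, against 2 as reported, and the count lower was 2 without both arrays labelled 24 h and 0 with only the groups compared, against 5. Leaving out 1 array gave 0 to 4 higher and 0 to 4 lower. For 48 h against 24 h, leaving out 1 array gave 4 to 11 lower, against 10. Whether the same replicate numbers pair samples is not known (correlation of deviations 0.00 to 0.18 over 6 pairs of groups). The 3 values above 0.1 (0.16, 0.12 and 0.18) were those among untreated A2780, A2780CP20 and 48 h. Pairs with 24 h were at 0.04 or less. The replicate block left 7 higher and 6 lower at 24 h. The median change of all genes moved between -0.07 and 0.06 over all settings and comparisons. For A2780CP20 the all-gene counts moved as well, from 1174 higher and 2214 lower to 232 and 790 with only the groups compared. For 48 h against 24 h the all-gene counts also moved when 1 array was left out. Where values lie below 5.03, signal over background is unknown, which limits ABCB1 outside the 24 h arrays and ABCD2 within them.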
